A study of Mus musculus with 2 samples.

Results

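The globin chains of hemoglobin, the chaperone of the free alpha chain and the heme-regulated kinase Eif2ak1 were examined in pre CFU-E, the erythroid progenitors that come before the colony-forming unit-erythroid, of mice with and without the endothelial cell-selective adhesion molecule ESAM. The set held 10 genes: the adult alpha chains Hba-a1 and Hba-a2, the embryonic alpha-like chain Hba-x (zeta), the embryonic beta-like chains Hbb-bh1 and Hbb-y, the adult beta chains Hbb-b2, Hbb-bs and Hbb-bt, the chaperone Ahsp, and Eif2ak1. A gene was taken as measured where the RefSeq accession of a non-control probe mapped to its symbol. This gave 10 probes for 9 of the 10 genes, among 20656 genes named on the array. Ahsp was not matched by this rule and is not analysed here.

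The ESAM-KO group carried a germline deletion of ESAM and the control group was wild type (WT), both on the C57BL/6 background and 8 to 12 weeks old. Both received a single dose of 120 mg/kg 5-fluorouracil (5-FU), which kills dividing marrow cells, and pre CFU-E were sorted from the bone marrow of femora and tibiae 8 days later. The gate was lineage-negative, FCγRII/III negative to low, CD41 low, c-Kit+, Sca1-, endoglin+ and CD150+. Heterozygous matings yielded knockout mice and WT mice, and WT mice were also bought, and which of these WT mice were pooled was not given in the sources used here. Cells of 3 mice were pooled per genotype, and each pool was hybridised to 1 array after whole-transcriptome amplification. There is therefore 1 sample per genotype and no replicate check, so no p-value is given and the values below compare 2 pools.

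Hemoglobin carries oxygen as a tetramer of alpha-type and beta-type chains, each holding a heme. Embryonic red cells use Hba-x, Hbb-bh1 and Hbb-y, whereas definitive red cells of the adult marrow use the adult alpha and beta chains, whose output is kept close to balance because free alpha chain is unstable and damages the cell. Ahsp holds free alpha chain in a soluble form, and Eif2ak1, also called HRI, slows globin translation by phosphorylating eIF2alpha when heme is short. The single-type Hbb haplotype of C57BL/6 carries Hbb-bs and Hbb-bt. Hbb-b2 is the name of the minor beta gene of the diffuse haplotype of other strains, so the transcript bound by its probe is uncertain. Hba-a1 and Hba-a2, and likewise the adult beta genes, are near-identical copies, and probes of one may bind the other.

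The promoters of the 6 globin members with an entry in RefSeq's table (build GRCm38.p6) are printed first, since the adult alpha pair and the adult beta pair differ in how alike these letters are. Each line gives the 250 bases before the transcription start, 5′ to 3′ on the strand of the gene. The windows are chr11:32283422-32283671 (+) for Hba-a1, chr11:32296242-32296491 (+) for Hba-a2, chr11:32276350-32276599 (+) for Hba-x, chr7:103827929-103828178 (-) for Hbb-bs, chr7:103813924-103814173 (-) for Hbb-bt and chr7:103853208-103853457 (-) for Hbb-y. Capitals mark matches on either strand to short motifs known from globin promoters. These are CACCC, the core of the box bound by Klf1-type factors, then CCAAT, the core of the box of that name, then GATAA, the core of the site of Gata1, and ATATAA, which matches the box bound by the basal transcription machinery.
Hba-a1: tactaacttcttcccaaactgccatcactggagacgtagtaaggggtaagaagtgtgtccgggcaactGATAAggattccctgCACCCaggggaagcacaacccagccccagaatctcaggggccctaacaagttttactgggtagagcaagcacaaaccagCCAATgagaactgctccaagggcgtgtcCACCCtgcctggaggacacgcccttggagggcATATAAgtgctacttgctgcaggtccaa
Hba-a2: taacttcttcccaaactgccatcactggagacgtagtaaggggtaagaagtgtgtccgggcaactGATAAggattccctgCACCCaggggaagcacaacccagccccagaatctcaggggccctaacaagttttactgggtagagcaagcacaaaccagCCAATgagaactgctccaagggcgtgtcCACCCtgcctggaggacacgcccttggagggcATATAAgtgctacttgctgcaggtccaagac
Hba-x: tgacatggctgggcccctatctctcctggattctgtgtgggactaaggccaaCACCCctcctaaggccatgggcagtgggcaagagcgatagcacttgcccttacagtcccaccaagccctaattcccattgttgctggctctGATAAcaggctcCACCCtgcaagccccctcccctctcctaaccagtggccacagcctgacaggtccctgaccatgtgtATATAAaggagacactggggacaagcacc
Hbb-bs: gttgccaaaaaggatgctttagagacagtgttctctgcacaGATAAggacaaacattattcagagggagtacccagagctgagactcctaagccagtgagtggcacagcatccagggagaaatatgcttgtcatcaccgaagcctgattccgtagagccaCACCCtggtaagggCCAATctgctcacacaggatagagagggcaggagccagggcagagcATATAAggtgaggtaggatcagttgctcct
Hbb-bt: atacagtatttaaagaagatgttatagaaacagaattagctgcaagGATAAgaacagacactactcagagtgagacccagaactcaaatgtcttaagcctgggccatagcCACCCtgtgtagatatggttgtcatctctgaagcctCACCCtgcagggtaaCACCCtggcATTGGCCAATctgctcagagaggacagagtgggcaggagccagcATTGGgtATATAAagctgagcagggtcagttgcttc
Hbb-y: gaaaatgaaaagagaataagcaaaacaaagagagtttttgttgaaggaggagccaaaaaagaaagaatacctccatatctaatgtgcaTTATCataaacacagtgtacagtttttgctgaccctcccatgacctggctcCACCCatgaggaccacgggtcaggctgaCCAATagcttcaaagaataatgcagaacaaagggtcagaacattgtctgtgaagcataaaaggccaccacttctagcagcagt

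Hba-a1 and Hba-a2 were identical at 247 of 247 bases once shifted by 3 bases, so the annotated starts differ but the letters do not. Hbb-bs and Hbb-bt were identical at 127 of 249 bases (51%) without gaps, so an insertion or deletion would lower this share. The other pairs compared in the same way gave 29.8% (Hba-a1 and Hba-x) to 34.4% (Hbb-bt and Hbb-y). CACCC stood once in Hbb-bs and 3 times in Hbb-bt, and CCAAT once and 3 times, with adjoining CCAAT matches on opposite strands in Hbb-bt. ATATAA began at base -28 before the start in Hba-a1, -30 in Hbb-bs and -29 in both Hbb-bt and Hba-x. It was not among the letters of the Hbb-y window, and CCAAT was not among those of Hba-x. Among all 32851 promoters of the table, the same window held CACCC in 52%, CCAAT in 33.8%, GATAA in 22.6% and ATATAA in 9.1%. A match describes the letters and is not evidence of binding.

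The microarray gave a background-subtracted fluorescence (the processed signal, in scanner units) for each of 59305 non-control spots. The 75th percentile of the signal, by which each array was scaled, was 201.4 in WT and 251.1 in ESAM-KO, so scaling lowered every log2 ratio by 0.32. The scanner software called 57.3% of spots in WT and 61.1% in ESAM-KO well above background, and 0 spots were saturated. Of the 10 member probes, 7 passed this call on both arrays and 3 on neither. Each member probe was printed as a single spot. Errors are the scanner software's estimate for the spot, carried to the log2 scale, and cover neither mice nor sorting nor amplification. Esam itself was dim, at 27.4 in WT and 20.6 in ESAM-KO (log2 ratio -0.73, error 0.31; -0.26 after another background correction), and whether its probe lies in the deleted part was not given in the sources used here.

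The adult globin transcripts were lower in ESAM-KO pre CFU-E. All 5 adult globin probes read lower by more than 2-fold, from 3.05-fold for Hbb-bt to 5.75-fold for Hbb-bs. Taken as log2 ratios, with ESAM-KO divided by WT, their median was -2.24. That median is the value of the Hbb-b2 probe, whose target is uncertain in this strain. Probes of near-identical copies may bind the same transcripts, so these are not 5 independent readings. Below, these probes are called the 5 adult globins. Over the 14133 named genes with a ratio, 8.42% (1190 genes) were lower by more than 2-fold, 6.99% (988 genes) were higher by more than 2-fold, and the median log2 ratio was 0.0006. Without scaling that split was 728 lower and 1803 higher, and all 5 adult globins stayed past 2-fold. No member was higher by more than 2-fold.

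Among the alpha chains, the processed signal of Hba-a1 (NM_008218) was 69472 ± 6947 (scanner error) in WT against 18064 ± 1806 in ESAM-KO. The knockout pool was thus 4.80-fold lower, and the log2 ratio was -2.26 (error 0.20). Hba-a2 (NM_001083955), the second adult alpha gene, gave 22178 ± 2218 in WT against 6025 ± 603 in ESAM-KO, 4.59-fold lower at a log2 ratio of -2.20. The alpha genes thus differed from each other by -0.06 on the log2 ratio scale, within the error of that difference (0.29). Because these probes may each bind both transcripts, they are not independent readings.

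Among the beta chains, the adult gene Hbb-bs (NM_001201391) gave 2399 ± 240 in WT against 521 ± 52.2 in ESAM-KO, 5.75-fold lower at a log2 ratio of -2.52. Hbb-bt (NM_008220), the other adult beta gene of this haplotype, was at 7766 ± 777 in WT and 3180 ± 318 in ESAM-KO. Its log2 ratio was -1.61, a 3.05-fold lower level and the smallest fall among the adult chains. The probe assigned to Hbb-b2 (NM_016956) gave 1578 ± 158 in WT against 418 ± 41.9 in ESAM-KO (log2 ratio -2.24). Hbb-bs fell further than Hbb-bt by 0.92 on the log2 scale (1.89-fold), above the error of 0.29. The Hbb-b2 probe lay between the other beta probes, 0.29 above Hbb-bs and 0.63 below Hbb-bt in log2 ratio. The beta probes therefore disagreed on the size of the fall and not on its direction.

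**Figure D1:**
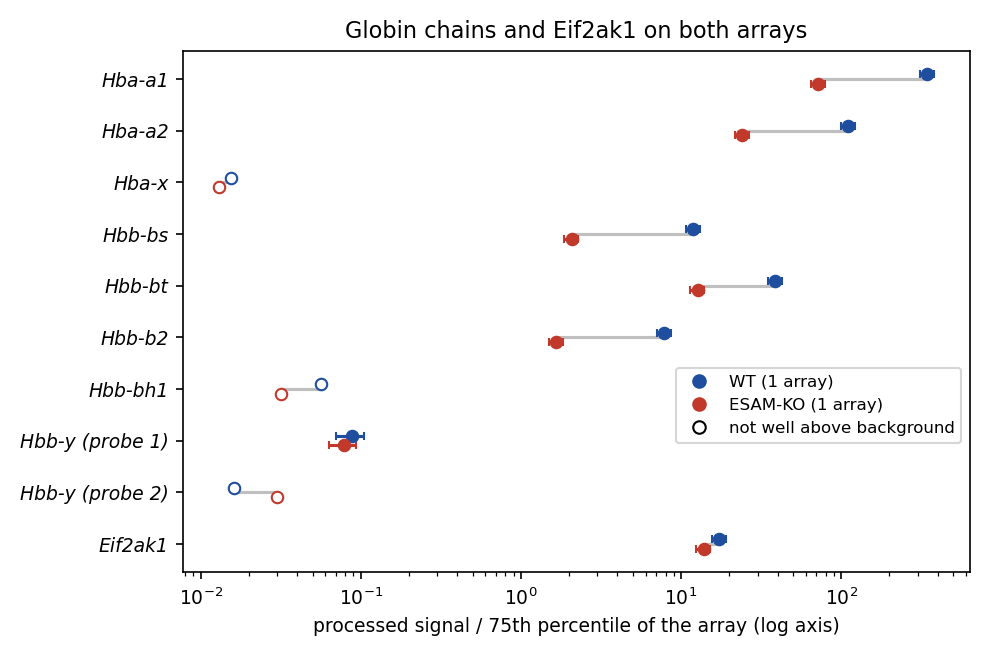
Processed signal of each member probe divided by the 75th percentile of its array (x axis, log scale), with WT in blue and ESAM-KO in red, 1 array each. Bars are the scanner software's error and open circles, drawn without bars, are not well above background. The 5 adult globins lie apart by 3.05- to 5.75-fold while the genotypes lie close together for Eif2ak1 and the brighter Hbb-y probe, and rows are different probes whose levels cannot be set against each other.

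The balance of alpha and beta chains can be compared here only as a change between genotypes, since signals of different probes are not on one scale. The mean log2 ratio was -2.23 over Hba-a1 and Hba-a2 and -2.06 over Hbb-bs and Hbb-bt. The alpha genes thus fell further than the beta genes by 0.17 (1.12-fold), which was less than the scanner error of that difference (0.20). The sign depended on the beta probe. Against Hbb-bt, Hba-a1 fell further by 0.66 (1.57-fold) and Hba-a2 by 0.59 (1.51-fold), both above an error of 0.29. Against Hbb-bs, the log2 ratio of Hba-a1 was higher by 0.26 and that of Hba-a2 by 0.32, the first below and the other slightly above the error. With beta taken as Hbb-bs alone, the difference of alpha minus beta was 0.29, and with the signals of each chain type summed it was -0.47. These probes therefore did not settle the direction of a shift of alpha against beta, and the values between single genes all lay at 1.57-fold or less.

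**Figure D2:**
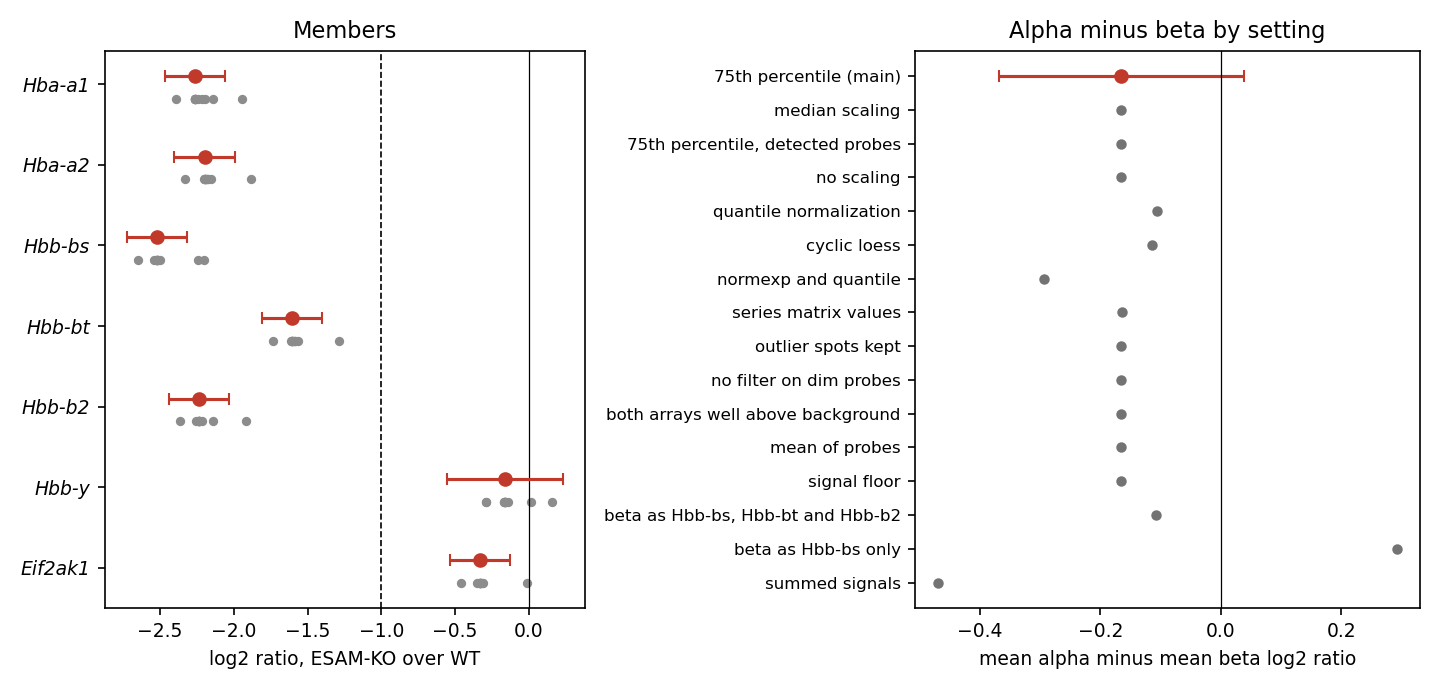
Left, log2 ratio of ESAM-KO over WT for the 7 members well above background on both arrays, with the reported value and scanner error in red and the values under 12 other processing settings in grey. Right, mean alpha minus mean beta log2 ratio under each setting, with the scanner error on the reported value. All 5 adult globins stay below -1 (dashed line) in every setting, while alpha minus beta runs from -0.47 (summed signals) to 0.29 (Hbb-bs as the sole beta gene). Settings on outlier spots, dim probes and probe averaging could not move the adult globins. Neither these nor scaling by a constant per array could move alpha minus beta.

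The embryonic chains were at or near background in both genotypes. Hba-x (NM_010405) read 3.13 in WT and 3.28 in ESAM-KO, and Hbb-bh1 (NM_008219) read 11.3 and 7.98. Neither passed the background call on an array, so no ratio was taken. Of the Hbb-y (NM_008221) probes, the dimmer read 3.24 and 7.50 and also failed that call. The brighter passed on both arrays, at 17.7 ± 3.48 in WT against 19.7 ± 3.74 in ESAM-KO, and its log2 ratio was -0.16 (error 0.39). The lowest signals called well above background were 12.6 in WT and 13.2 in ESAM-KO.

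The mean log2 ratio of the 5 adult globin probes (-2.17) was lower than that of Hbb-y by 2.01, with an error of 0.41. Hbb-y could not have shown a fall of the adult size, because the largest fall measurable from its WT signal was 1.67-fold. The same limit was 6587-fold for Hba-a1 and 150-fold for the Hbb-b2 probe. The adult and embryonic chains were thus not compared over the same range, and the data do not show whether embryonic transcripts were spared. Of other globin genes, Hbb-bh2, a further beta-like gene of the cluster, read 32.8 on both arrays, a log2 ratio of -0.32. Hbq1b, a theta globin, was well above background in ESAM-KO alone, at 14.0 in WT and 21.6 in ESAM-KO. Its log2 ratio of 0.31 was smaller than its scanner error of 0.44, so no change was read from it. Hbq1a, Mb, Cygb and Ngb failed the background call on both arrays.

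Eif2ak1 (NM_013557) was detected at 3497 ± 350 in WT against 3468 ± 347 in ESAM-KO. After scaling the log2 ratio was -0.33 (error 0.20), and without scaling it was -0.01, inside 2-fold either way. The adult globins had a mean log2 ratio of -2.17, which was 3.57-fold below that of Eif2ak1 (error of the log2 difference 0.22).

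Signal strength affects how often a gene passes 2-fold, so the adult globins were also set among genes of like brightness. In the brightest quartile of the 12613 named genes well above background on both arrays, 3154 genes, 1.84% (58 genes) were lower by more than 2-fold, and the log2 ratios ran from -3.50 to 2.01 with a median of 0.02. The adult globins other than Hbb-b2 were in that quartile. Counted from the lowest ratio Hbb-bs was 7th, Hba-a1 9th, Hba-a2 10th and Hbb-bt 17th, with Eif2ak1 587th. Among all 14133 genes they were 164th (Hbb-bs), 213th (Hba-a1), 219th (Hbb-b2), 229th (Hba-a2) and 491st (Hbb-bt). The adult globins were therefore among the lower ratios of bright genes, with others below them.

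**Figure D3:**
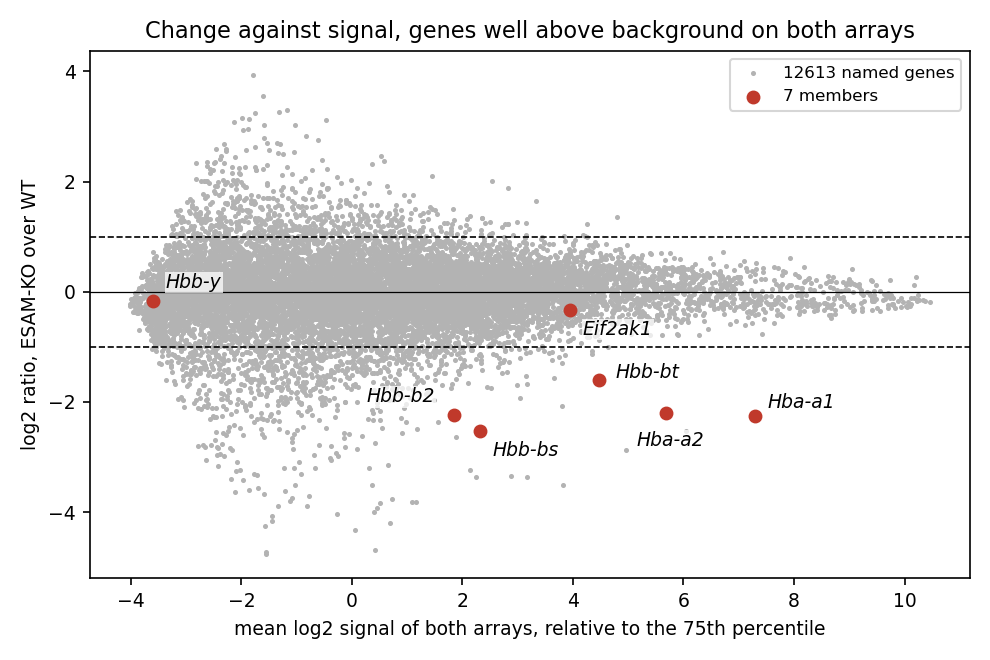
Log2 ratio of ESAM-KO over WT (y axis) against the mean log2 signal of both arrays relative to the 75th percentile (x axis), for the 12613 named genes well above background on both arrays. Members are in red, and dashed lines mark 2-fold. The 5 adult globins lie below the bulk of genes at their signal, while Eif2ak1 and Hbb-y lie within it.

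A further comparison took the genes with the top 5% of WT signals, 631 genes that include Hba-a1 and Hba-a2. Choosing on WT signal favours ratios below 0, and the median of the 629 other genes was -0.07. Of these 629, 3 lay at or below the ratio of Hbb-bt: Lcn2, a neutrophil granule protein, at -3.50 (9604 in WT, 1057 in ESAM-KO), Slc4a1, the band 3 anion exchanger of the red cell membrane, at -2.87 (17035 and 2904), and S100a9, a calcium-binding protein of neutrophils, at -2.53 (31988 and 6901). Apoe, a lipid carrier, followed at -1.45 (12315 and 5631). No other gene of the 629 passed 2-fold downward and 0 passed it upward. The next were Cox6b2 at -0.79, Anp32a at -0.79, Trim25 at -0.78, Sun2 at -0.78, Usp25 at -0.77 and Slc4a7 at -0.77, and other probes of Anp32a, Usp25 and Slc4a7 gave 0.00, 0.48 and 1.89.

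Heme synthesis, the supply of the other part of hemoglobin, was lower by more than 2-fold at 1 of its 9 genes, a share to be read beside the 8.42% of all named genes, with a median log2 ratio of -0.30 (0.01 without scaling). That gene was Alas2, the erythroid form of the rate-limiting enzyme, at 552 in WT and 238 in ESAM-KO (log2 ratio -1.53, error 0.21). The remaining 8 stayed within 2-fold, among them Alas1, the form of the first enzyme used in all tissues (0.28), Urod (-0.81), Cpox (0.58) and the last step Fech (-0.30).

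Of the 23 genes of the eIF2alpha kinase pathway, which holds Eif2ak1, the other kinases, eIF2 and its exchange factor and the targets of Atf4, 1 was lower and 2 were higher by more than 2-fold, and the median of the 22 well above background on both arrays was 0.08. These counts are to be read beside the 8.42% lower and 6.99% higher among all named genes. With median scaling 3 of the 23 were lower. The higher genes were Grb10, an adaptor induced by the heme-regulated kinase in erythroblasts, at 55.0 and 285 (log2 ratio 2.06), and Eif2ak4, the kinase that senses amino acid lack, at 27.5 and 98.8 (1.53). The lower gene was Ppp1r15b, a subunit that directs dephosphorylation of eIF2alpha, at 1306 and 651 (-1.32). Eif2b3, of the exchange factor, was at 0.37 by its brightest probe and past 2-fold at 1.28 by another. Atf4, the factor translated when eIF2alpha is phosphorylated, was at 0.16 by 1 probe and -0.43 by another, so its direction was not settled. Among the targets of Atf4, Ddit3, Trib3, Asns, Sesn2 and Chac1 were at -0.08, -0.15, 0.37, 0.09 and 0.73. Transcript levels do not measure the activity of a kinase.

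Of the regulators of globin genes with a ratio, 1 lay at or below the ratio of Hbb-bt, and that was Sox6. Gata1, the main erythroid GATA factor, read 5959 in WT and 5889 in ESAM-KO (-0.34), and Klf1, which binds the CACCC box of the beta gene, read 1149 and 1147 (-0.32). Of the 20 regulators with a ratio, 3 were lower by more than 2-fold, beside 8.42% of all named genes, and 0 were higher. Their median was -0.34 over the 19 measured on both arrays. Sox6, which represses embryonic globin genes, fell at least 10.6-fold, from 112 in WT to not well above background in ESAM-KO. The others were Nr2c1, a nuclear receptor that represses embryonic beta-like globin genes, at -1.41, and -1.44 by a second probe, and Nfe2, which acts at the globin locus control region, at -1.34. The repressor Bcl11a was at 0.57 by 1 probe and -0.11 by another, and Zbtb7a at 0.61 and -0.80, so their direction was not settled. Of 8 genes that handle free alpha chain, the 7 other than Ahsp lay between -0.28 (Ulk1, which starts autophagy) and 0.21 (Hspa8, a heat shock chaperone), with a median of 0.01.

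Markers of other stages and cell types also differed between the pools. In all lists below, counts lower by more than 2-fold are to be read beside the 8.42% of all named genes. Of the 25 late erythroblast markers, 8 were lower by more than 2-fold and 0 were higher, with a median of -0.41 over the 21 measured on both arrays, and 6 of the 25 lay at or below the ratio of Hbb-bt. The count lower was 4 after normexp background correction with quantile normalization and 6 to 9 under the other settings. Among the lower ones were Slc4a1 (17035 and 2904, -2.87), Trim10 (146 and 36.8, -2.31), Tmcc2 (-1.71) and Rhd (-1.49), with Epb42 at least 12.9-fold and Ypel4 at least 4.25-fold lower. Bnip3l was at -1.04 by its brightest probe and at -0.98, -0.58 and 0.19 by the others, so its call rests on 1 of 4 probes. Within the same list Hemgn was at -0.18, the carbonic anhydrases Car1 and Car2 at -0.41 and -0.31, and the membrane anchor Ank1 at -0.49. The summed level of the list, in units of each array's 75th percentile, was 1440 in WT and 1165 in ESAM-KO. Hemgn made up 70.0% of the WT sum, and without it the sums were 431 and 273. By their brightest probes, the 8 early erythroid progenitor genes all stayed within 2-fold, with a median of -0.06. Among them were Kit (-0.36), Gata2 (-0.03), Epor (-0.10) and Tfrc (0.89). Cd34 was at 0.18 by its brightest probe and at -1.38 by another, so its direction was not settled.

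All 10 neutrophil markers were past 2-fold lower in ESAM-KO, with a median of -3.36, led by Ltf (-4.20), Retnlg (-3.99) and Mpo (-3.82). Their summed level was 295 in WT and 40.0 in ESAM-KO, 7.39-fold lower (136 and 12.5 without S100a9, the brightest), and 9 of the 10 lay at or below the ratio of Hbb-bt. The eosinophil granule genes Epx (-4.24) and Prg2 (-3.76) moved likewise, and were at -2.33 and -3.11 after normexp. The summed level of the 7 mast cell, basophil and eosinophil markers was 8.00 in WT and 0.794 in ESAM-KO. In that list Prss34 fell at least 7.54-fold, Ms4a2 was at least 2.61-fold higher, and Cpa3, Mcpt8 and Fcer1a failed the background call on both arrays. Of 8 B cell markers, 7 with a ratio, 4 were lower and 0 higher. The lower ones were Vpreb1 (-2.45) and Cd79b (-2.09) and, as bounds, Igll1 and Ebf1. The summed level was 2.91 in WT and 0.928 in ESAM-KO, and Ms4a1 failed the background call on both arrays. The count lower was 1 after normexp, where Cd79b was at -0.70, and 2 where both arrays had to pass the background call or probes were averaged. A lineage-negative, c-Kit+ gate would leave out mature cells of these types, yet their transcripts were measured and were higher in the WT pool. The part of neutrophil, eosinophil, B cell and late erythroblast transcripts in the globin difference was not tested, and in such pools fewer cells of a type cannot be told apart from less RNA per cell.

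The remaining lists held changes in both directions or few changes. Among 9 macrophage markers on the array, Vcam1 was lower (-2.88, and -1.03 by another probe), C1qa was higher (1.19, but 0.45 after normexp), and the summed level was 34.0 in WT and 30.3 in ESAM-KO, with C1qc and Mrc1 failing the background call on both arrays. Csf1r made up 95.6% of that sum in WT. It was at -0.16 by its brightest probe and at 0.66 by another, so the direction of the sum was not settled. Among 7 megakaryocyte markers, Treml1 (-1.93) and, as bounds, Ppbp and Gp9 were lower, and Vwf (1.28, but 0.74 after normexp) was higher, with summed levels of 9.16 and 8.31. The count lower was 1 without scaling, after normexp, and where both arrays had to pass the background call or probes were averaged. Of 7 T and NK cell markers, 4 with a ratio, Cd3d alone was lower, as a bound. That count was 0 after normexp, or where both arrays had to pass or probes were averaged. Cd3g, Cd8a and Klrb1c failed the background call on both arrays, and the summed levels were 12.2 in WT and 14.1 in ESAM-KO. Of 8 stem and early progenitor genes, 6 with a ratio, 0 were lower (1 with median scaling) and Hlf was at least 7.58-fold higher. Mecom and Procr failed the background call on both arrays, and the summed levels were 6.51 in WT and 5.82 in ESAM-KO.

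**Figure D4:**
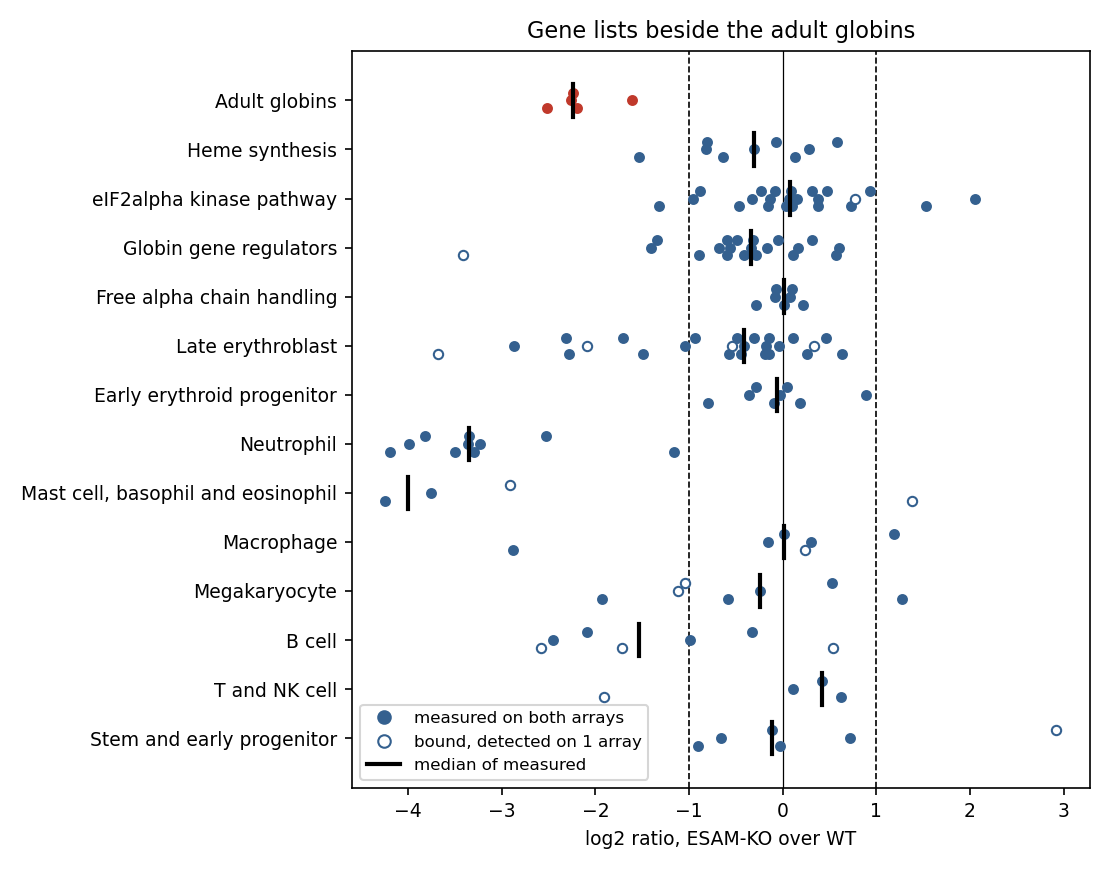
Log2 ratio of ESAM-KO over WT (x axis) for the adult globins (red) and the genes of 13 lists (blue), 1 point per gene. Open circles are bounds from genes well above background on 1 array, black bars are medians of the genes measured on both, and dashed lines mark 2-fold. The adult globins centre on -2.24, the neutrophil list on -3.36 and the B cell list on -1.54. The mast cell, basophil and eosinophil list, with 2 genes measured on both arrays, centres on -4.00. Late erythroblast markers centre on -0.41, globin regulators on -0.34, heme synthesis on -0.30, early erythroid genes on -0.06 and the eIF2alpha kinase pathway on 0.08.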

How the data were processed

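RNA from pre CFU-E of 3 pooled mice per genotype was amplified and hybridised by the authors to 1-colour Agilent mouse arrays. Per the file headers and the submitters' processing notes, Agilent Feature Extraction 10.10.1.1 gave each spot a background-subtracted intensity. These deposited intensities were divided by the 75th percentile of the non-control spots of the array and taken to log2. Control spots and 254 spots flagged as outliers were left out, and spots of a probe were averaged. Probes were named through RefSeq accessions (27229 of 55680 probes; GRCm38.p6 names), and a gene is reported by its brightest probe, with other probes given where those of a named gene differ in sign or in the 2-fold call.

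A probe well above background on only 1 array gave a bound, and on neither gave no ratio. With 1 array per genotype no test was run, and a change was called past 2-fold. The intensities of the deposited value table, taken as already made from these arrays by the authors, served as an alternative. Named genes were the 10 members, Esam, Gata1, Alas2, the largest rise and 3 largest falls past 2-fold in each list, and the 10 non-member bright genes with the lowest ratio. Further list genes are named as examples, chosen after their values were seen. The members and lists were chosen with earlier results of these data known. Python 3.11.15, pandas 2.3.3, R 4.3.3 and limma 3.58.1 (normexp, quantile and cyclic loess alternatives) were used. Some genes of the lists are counted but not reported here by name. The number of arrays limits the precision.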

Additional observations from a re-analysis of the deposited data

How the results depend on the processing

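Over 12 processing alternatives, all 5 adult globins stayed lower by more than 2-fold, with Hbb-bt the least (-1.29 without scaling). The settings on outlier spots, dim probes, the background call, probe averaging and a signal floor could not change these values. Each adult globin had a single probe and spot, well above background on both arrays. Only the scaling, normalization and deposited-value settings could move them. Their median log2 ratio ran from -2.37 with median scaling to -1.92 without scaling, and at a 4-fold threshold 4 of the 5 were called. The alpha minus beta difference stayed at -0.17 under the constant-scaling, spot and probe-filter settings, which could not change it. Scaling by a constant per array drops out of a difference, and each of these genes has a single probe and spot well above background. The remaining settings gave -0.11 (quantile normalization), -0.11 (cyclic loess), -0.29 (normexp and quantile) and -0.16 (deposited value table). The difference was -0.47 with summed signals, which mostly follow the brightest probes. It was 0.29 with Hbb-bs as the sole beta gene, so its sign depended on the beta probe and is not settled. Genes lower and higher by more than 2-fold numbered 728 and 1803 without scaling, 486 and 236 after normexp background correction, and 2307 and 1800 without the filter on dim probes. At 3-fold they numbered 504 and 317, and at 4-fold 294 and 155. With the mean of a gene's probes, 637 were higher. Some dim named genes were smaller in size after normexp but still past 2-fold. These included Trim10 at -1.34, Vpreb1 at -1.69, Vcam1 at -1.36 and Grb10 at 1.29. Hbb-y ran from -0.29 to 0.16 and Eif2ak1 from -0.46 to -0.01. No paired analysis was possible because there is a single array for ESAM-KO and for WT, and no replicate could be left out. The cause of these shifts was not tested. Signal over background limits the embryonic chains most.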
